A study of Mus musculus with 40 samples.

Results

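Expression of 10 genes of the TGF-beta and BMP pathway was followed through 2 aortic RNA-seq experiments: the ligands Tgfb1, Tgfb2, Tgfb3 and Bmp4, the receptor-activated Smads Smad2 and Smad3, the inhibitory Smads Smad6 and Smad7, and the Id genes Id1 and Id3. They were chosen by symbol, and all 10 were listed in both experiments, among 17809 genes listed in either of them. The experiments asked how the aortic response to angiotensin II (Ang-II, a pressor peptide) depends on calcineurin (Cn), a calcium-activated phosphatase, either by removing Cn from smooth muscle or by inhibiting it with cyclosporin A (CsA).

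In the genotype experiment the mice were males, backcrossed to C57BL/6J, and all libraries were labelled as floxed for CnB1, that is Ppp3r1, which encodes the regulatory subunit without which Cn is lost. SM-Cn-/- mice also carried Myh11-CreERT2, a tamoxifen-dependent Cre that acts in smooth muscle and leaves Cn in endothelium and other cells, and the Cn-Ctl libraries were labelled as Cre-negative. Both received tamoxifen at 1 mg per day for 5 days, at 10 to 12 weeks of age and 6 weeks before measurement, so that tamoxifen is shared by all these groups. Mice of either genotype were left untreated or carried a minipump that delivered Ang-II (1 µg/kg/min) during 2, 6 or 24 h. In the CsA experiment wild-type (WT) males of the C57BL/6J strain, with no tamoxifen, were left untreated or received Ang-II for 2 or 24 h. Either was done with or without CsA at 5 mg/kg/day, from a minipump implanted 5 days earlier. The paper does not say that this pump was removed, and its matching blood pressure experiment used mice aged 10 to 12 weeks. WT mice had no pump during the CsA pretreatment, so CsA and the pump cannot be told apart. Nor can Ang-II and its pump, since no group carried a pump without drug. The paper describes its control mice as operated on without a pump. Treated Cn-Ctl, WT and CsA mice were kept only if systolic pressure exceeded 130 mmHg, whereas SM-Cn-/- mice treated alongside had no pressure cut. The authors removed SM-Cn-/- mice whose CnB1 deletion was not seen, and CsA mice whose thymus showed no inhibition of NFAT dephosphorylation. Each library pooled 3 aortas stripped of adventitia. There were 3 libraries per group, except 2 for untreated Cn-Ctl and for Cn-Ctl at 24 h, for a total of 22 genotype and 18 CsA libraries.

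The TGF-beta ligands are secreted in a latent form, are stored in the matrix, and once released bind paired serine/threonine kinase receptors that phosphorylate Smad2 and Smad3. BMP ligands such as Bmp4 act through a second branch of Smads whose classic transcriptional targets are the Id genes, inhibitors of basic helix-loop-helix factors. Smad6 and Smad7 are feedback inhibitors, Smad6 mainly of the BMP branch and Smad7 of both. In the aorta the pathway is known for its part in matrix production, in the contractile state of smooth muscle and in aneurysm.

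The values are read signals, on a scale close to CPM (reads assigned to a gene relative to the library size). The genotype libraries held 2.73 to 10.3 M assigned reads and the CsA libraries 19.0 to 38.9 M. Smooth muscle markers were abundant, with a summed signal over 9 genes of 32232 to 33095 in untreated Cn-Ctl, 23998 to 27936 in untreated SM-Cn-/- and 28724 to 39308 in untreated WT. The deletion was not visible in the mRNA of the targeted gene: Ppp3r1 signal ranged from 45.7 to 134 over Cn-Ctl and from 41.8 to 118 over SM-Cn-/- libraries, and the lowest adjusted p of the 4 genotype contrasts was 0.429. The paper checked recombination by PCR on a piece of each aorta, and its immunoblots showed less CnB and CnA protein in SM-Cn-/- aortas. Rcan1, a Cn-responsive gene chosen after its values were seen, read 27.6 and 45.4 in untreated Cn-Ctl and 368, 404 and 380 after 2 h of Ang-II. In SM-Cn-/- it read 38.3, 36.1 and 30.4 untreated and 46.6, 31.7 and 55.3 after 2 h, so that no 2 h library of this genotype reached the Cn-Ctl range. In WT, Rcan1 read 36.9, 30.7 and 45.2 untreated and 304, 234 and 349 after 2 h. In CsA it read 32.3, 36.5 and 32.4 untreated and 101, 163 and 134 after 2 h. The CsA libraries at 2 h thus lay above untreated CsA and below WT at 2 h.

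Per kilobase of exon, Tgfb3, Id3 and Id1 were the most abundant of the 10 genes. Over the genotype libraries their median signal per kilobase was 49.1, 38.5 and 38.5, and over the CsA libraries 61.6, 74.5 and 63.2. Tgfb2 (19.8 and 21.3), Bmp4 (16 and 13.4) and Smad7 (10.2 and 12.6) followed. Smad6, Smad3, Tgfb1 and Smad2 lay lowest, at 4.42, 4.13, 3.88 and 2.81 over the genotype libraries, and at 12.3, 5.52, 8.67 and 2.47 over the CsA libraries. The tables were scaled separately, so levels are not compared between experiments. No member was at 0 reads in any library, and the lowest counts were 14 reads for Tgfb1 and 21 for Smad2, both in the shallowest library, SM-Cn-/- 6 h replicate 3.

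Of the 10 members, 6 passed the test (limma, Benjamini-Hochberg adjusted p under 0.05 over all protein-coding genes) in at least 1 of 22 comparisons, and Tgfb2 did so most often, in 12. Of 13435 genes tested in all 22, 65.5% passed in at least 1. Tgfb3 passed in 8, Bmp4 and Smad6 in 3 each, and Id1 and Id3 in 2 each. Tgfb1, Smad2, Smad3 and Smad7 passed in none, with lowest adjusted p values of 0.187, 0.138, 0.166 and 0.0618.

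The 250 bases before the transcription start are shown for the members that passed and for which the RefSeq promoter table (GRCm38.p6) and the GENCODE annotation gave the same start, namely Tgfb2, Bmp4 and Smad6. The table had an entry for 6 of the 10 members. Tgfb2 lies at chr1:186622792-186705989, Bmp4 at chr14:46383520-46390669 and Smad6 at chr9:63953076-64022059, all on the minus strand of GRCm38. The printed windows, chr1:186705990-186706239, chr14:46390670-46390919 and chr9:64022060-64022309, are given 5′ to 3′ on that strand, and capitals mark matches to the 6 motifs searched on both strands.
Tgfb2: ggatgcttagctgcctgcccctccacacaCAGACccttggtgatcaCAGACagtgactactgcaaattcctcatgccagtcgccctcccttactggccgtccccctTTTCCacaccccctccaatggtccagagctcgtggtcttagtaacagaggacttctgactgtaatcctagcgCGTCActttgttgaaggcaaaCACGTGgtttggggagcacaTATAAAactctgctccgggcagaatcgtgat
Bmp4: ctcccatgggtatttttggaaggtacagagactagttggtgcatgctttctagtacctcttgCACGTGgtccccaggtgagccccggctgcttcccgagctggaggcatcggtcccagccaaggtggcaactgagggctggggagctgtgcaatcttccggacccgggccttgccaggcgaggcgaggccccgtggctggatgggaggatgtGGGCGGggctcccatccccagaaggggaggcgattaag
Smad6: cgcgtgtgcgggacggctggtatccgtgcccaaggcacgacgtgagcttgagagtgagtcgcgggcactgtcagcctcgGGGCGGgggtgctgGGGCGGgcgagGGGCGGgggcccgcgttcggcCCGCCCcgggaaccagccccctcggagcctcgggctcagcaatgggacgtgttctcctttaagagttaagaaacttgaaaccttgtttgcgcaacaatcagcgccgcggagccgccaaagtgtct

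The Tgfb2 window held a TATA box (TATAAA) whose first base lies 31 bases before the start. Further upstream it held an E-box (CACGTG) at 51, the core of a cAMP response element (TGACG, on the opposite strand as CGTCA) at 72, an NFAT core (GGAAA, as TTTCC) at 144 and Smad boxes (CAGAC) at 204 and 221. Bmp4 held a GC box (GGGCGG) at 38 and an E-box at 188. Smad6 held GC boxes at 146, 157 and 171 and, on the opposite strand, at 125. Of 32851 promoter windows of the same length, 12.4% held TATAAA, 6.02% CACGTG, 17.8% TGACG, 55.6% GGAAA, 42.2% CAGAC and 32.7% GGGCGG. These short matches are common and describe the letters only.

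Tgfb2, a TGF-beta isoform, rose early and strongly in Cn-Ctl aortas. Its signal was 89.6 and 114 untreated, 472, 453 and 424 after 2 h of Ang-II, 243, 183 and 220 after 6 h, and 184 and 197 after 24 h. Every treated library lay above both untreated libraries, and the 2 h libraries lay above all later ones. The log2 fold change against untreated was 2.15 ± 0.20 (SE; limma adjusted p = 2.19e-07) at 2 h, 1.08 ± 0.20 (adjusted p = 0.00195) at 6 h and 0.91 ± 0.21 (adjusted p = 0.0139) at 24 h, and the mean signal at 2 h was 4.42 times the untreated mean. Without untreated replicate 2 the adjusted p was 0.083 at 6 h and 0.179 at 24 h, and without 24 h replicate 3 it was 0.125 at 24 h. Fitted on the compared groups alone, 6 h and 24 h gave 0.0639 and 0.083.

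In SM-Cn-/- aortas the early rise of Tgfb2 was not detected and its level fell at 24 h. The signal was 117, 82.3 and 84.6 untreated, 153, 111 and 115 after 2 h, 99.4, 86.5 and 74.1 after 6 h, and 39.3, 36.1 and 30.8 after 24 h. The 2 h and 6 h libraries overlapped the untreated ones, and all 24 h libraries lay below them. The log2 fold change was 0.42 ± 0.18 (adjusted p = 0.306), -0.12 ± 0.18 (adjusted p = 0.804) and -1.39 ± 0.18 (adjusted p = 0.00034) at 2, 6 and 24 h, with a 24 h mean 0.374 times the untreated mean.

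Between genotypes, Tgfb2 did not differ detectably without Ang-II (log2 difference -0.11, adjusted p = 0.988) and was lower in SM-Cn-/- at each time of Ang-II, with no overlap of libraries. The log2 difference, SM-Cn-/- minus Cn-Ctl, was -1.84 ± 0.18 (adjusted p = 1.11e-06) at 2 h, -1.31 ± 0.18 (adjusted p = 0.000161) at 6 h and -2.42 ± 0.20 (adjusted p = 3.9e-07) at 24 h. The difference of the 2 Ang-II responses was itself tested and was -1.73 (95% interval -2.27 to -1.18; adjusted p = 0.0022) at 2 h and -2.31 (-2.88 to -1.73; adjusted p = 0.000481) at 24 h. At 6 h it was -1.19 (-1.74 to -0.65) with an adjusted p of 0.14, against 0.00453 by DESeq2. Smooth muscle marker sums were 28144 to 36367, 26904 to 32974 and 27958 to 30877 in SM-Cn-/- at 2, 6 and 24 h against 30116 to 40055, 35287 to 38555 and 29958 to 53790 in Cn-Ctl, which did not overlap untreated or at 6 h, with 2 of 9 genes lower at 2 h, 1 at 24 h and none passing untreated or at 6 h. Against untreated, 3, 3 and 2 of 8 fibroblast genes were higher in Cn-Ctl at 2, 6 and 24 h, and 2 in SM-Cn-/- at 6 h only. Of 8 macrophage genes, 1, 2 and 2 were higher in Cn-Ctl at those times. Between genotypes 1 fibroblast gene was lower in SM-Cn-/-, at 24 h only, and no macrophage gene passed. Endothelial sums are given with the Id genes. The part of these markers in the Tgfb2 and Tgfb3 differences was not tested. In bulk aorta, fewer cells of a type and less RNA per cell cannot be told apart.

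**Figure D1:**
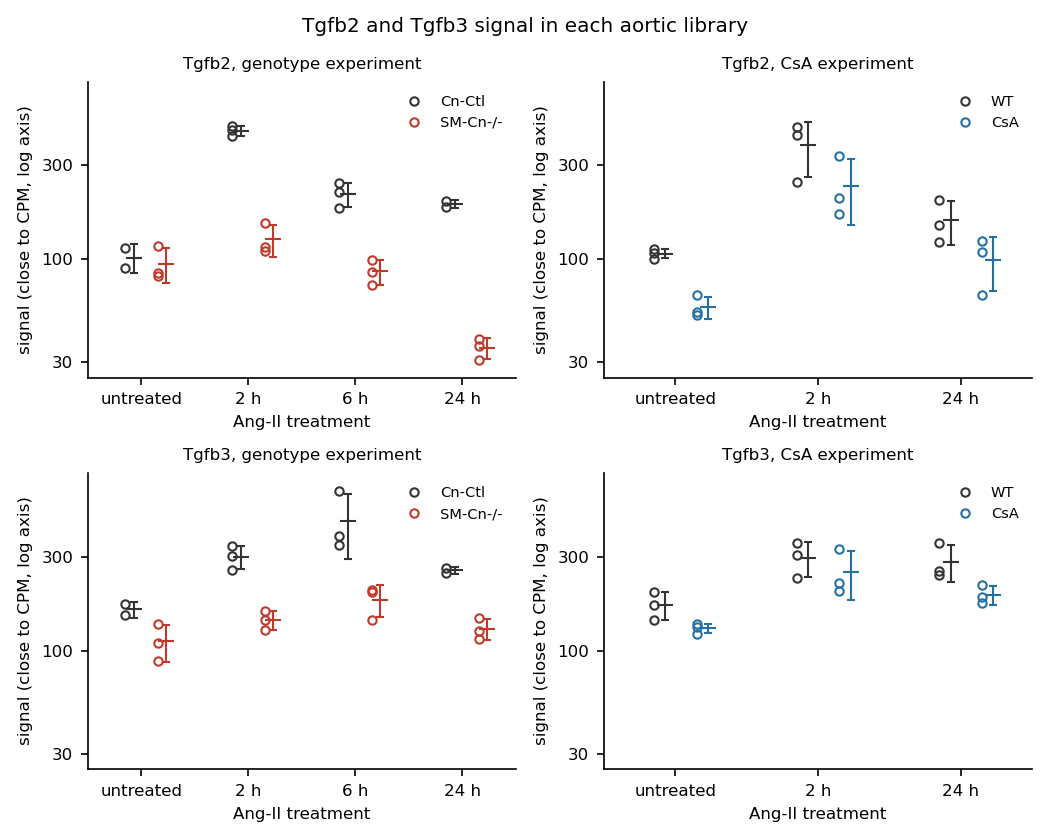
Normalized read signal (close to CPM, log axis) of Tgfb2 and Tgfb3 against hours of Ang-II in the genotype and CsA experiments; open circles are libraries, dashes and bars the mean ± SD of 2 or 3 libraries. After 2 h of Ang-II, Tgfb2 lay between 424 and 472 in Cn-Ctl and between 111 and 153 in SM-Cn-/-, while the WT (245 to 469) and CsA (169 to 336) libraries overlapped.

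Tgfb2 was lower in CsA than in WT before Ang-II, and a smaller rise over 2 h was not detected. The signal was 112, 101 and 107 in untreated WT and 53.8, 51.9 and 65.4 in CsA, with no overlap (log2 difference -0.90 ± 0.28, adjusted p = 0.0278; mean 0.535 times that of WT). After 2 h it was 469, 245 and 428 in WT and 169, 336 and 205 in CsA, and after 24 h 201, 150 and 123 in WT and 108, 123 and 65.6 in CsA. The 2 h rise was 1.78 ± 0.28 on the log2 scale in WT (adjusted p = 0.000317) and 1.99 ± 0.28 in CsA (adjusted p = 0.000242). The responses differed by 0.21 (95% interval -0.63 to 1.05) at 2 h and by 0.22 (-0.63 to 1.06) at 24 h. The CsA and genotype experiments were not tested against each other. At 24 h neither arm passed (0.53, adjusted p = 0.156 in WT and 0.75, adjusted p = 0.105 in CsA), and neither did CsA minus WT at 2 h (-0.69, adjusted p = 0.203) or 24 h (-0.69, adjusted p = 0.151). The 24 h rise passed in WT with only the compared groups (0.0244), and in CsA by DESeq2 (0.0283) or without 24 h replicate 3 (0.0282). Rcan1 also still rose at 2 h in CsA, to the lower values given above.

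The lower untreated level of Tgfb2 in CsA stood beside different levels of cell type markers in those libraries, and 25.2% of all genes passed in that contrast. Summed smooth muscle markers were 18545 to 20909 in untreated CsA against 28724 to 39308 in WT, with 8 of 9 genes lower. Summed endothelial markers were 1174 to 1365 against 487 to 771, with 9 of 10 genes higher and the other, Erg, lower. Macrophage markers (290 to 355 against 106 to 156, 8 of 8 higher) and adipose markers (5406 to 8184 against 1004 to 1804, 7 of 8 higher) were also higher, and none of the defining genes of the endothelial, smooth muscle and adipose lists was at 0 in any library. The part of these markers in the Tgfb2 difference was not tested. That call was lost when any of 5 untreated libraries was left out, namely WT replicate 1, 2 or 3 (adjusted p = 0.0708, 0.059 and 0.0747) or CsA replicate 1 or 2 (0.0745 and 0.0755).

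Tgfb3, a second TGF-beta isoform (chr12:86056745-86079041, minus strand), rose in Cn-Ctl and had its highest mean at 6 h, though the times were not tested against each other. Its signal was 173 and 152 untreated, 302, 341 and 258 after 2 h, 383, 344 and 648 after 6 h, and 249 and 263 after 24 h. All treated libraries lay above the untreated ones, and 6 h replicate 3 was far above the rest. The log2 fold change was 0.88 ± 0.23 (adjusted p = 0.025) at 2 h, 1.44 ± 0.23 (adjusted p = 0.000672) at 6 h and 0.66 ± 0.26 (adjusted p = 0.14) at 24 h. The 2 h call was lost without 2 h replicate 1 or 2 (adjusted p = 0.0693 and 0.101) or untreated replicate 2 or 3 (0.0998 and 0.246), and with quantile normalization (0.22). The 6 h call was lost with only the compared groups (0.0644).

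In SM-Cn-/- the signal of Tgfb3 was 137, 110 and 88.2 untreated, 144, 127 and 160 after 2 h, 198, 204 and 143 after 6 h, and 146, 126 and 114 after 24 h. Only the 6 h libraries all lay above the untreated ones, and no time passed (log2 fold change 0.38, 0.71 and 0.22; adjusted p = 0.457, 0.0758 and 0.765). Between genotypes Tgfb3 was lower in SM-Cn-/- by -1.06 ± 0.21 (adjusted p = 0.00397), -1.29 ± 0.21 (adjusted p = 0.00133) and -1.0 ± 0.23 (adjusted p = 0.0138) at 2, 6 and 24 h, with no overlap. The untreated libraries did not overlap either (-0.56, adjusted p = 0.864). The difference of the responses was -0.50 (95% interval -1.16 to 0.15), -0.73 (-1.39 to -0.08; adjusted p = 0.732) and -0.44 (-1.13 to 0.25), so a smaller response of Tgfb3 in SM-Cn-/- did not pass at any time. The 24 h genotype call was lost without Cn-Ctl 24 h replicate 3 (adjusted p = 0.138) or SM-Cn-/- 24 h replicate 3 (0.0551), and the 6 h one with only the compared groups (0.0931). The 6 h rise within SM-Cn-/- passed by DESeq2 (0.0375) and without Cn-Ctl 6 h replicate 3 (0.0261).

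In the CsA experiment Tgfb3 rose in both arms at 2 h. The signal was 144, 171 and 198 in untreated WT and 308, 233 and 351 at 2 h, against 132, 136 and 122 and then 201, 331 and 222 in CsA, with no overlap in either arm. The log2 fold change was 0.79 ± 0.19 (adjusted p = 0.00744) in WT and 0.91 ± 0.19 (adjusted p = 0.0042) in CsA. At 24 h it was 0.72 ± 0.19 in WT (adjusted p = 0.00859; 352, 253 and 243) and 0.56 in CsA (adjusted p = 0.0787; 188, 216 and 174). The responses differed by 0.12 (95% interval -0.45 to 0.70) and -0.16 (-0.73 to 0.42). The 24 h rise in CsA passed by DESeq2 (0.0277), with quantile normalization (0.0357), with only the compared groups (0.0407) and without CsA 2 h replicate 2 (0.0468).

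Tgfb1, the isoform most studied in fibrosis, did not pass in any comparison. Its signal ran from 5.03 to 35.9 with a median of 19.5 in the genotype experiment, and from 36.8 to 56.5 with a median of 43.7 in the CsA experiment. At 24 h it was 17.1 and 13.8 in Cn-Ctl, within or just below the untreated 19.7 and 14.9, and 27.8, 35.9 and 19.2 in SM-Cn-/-, overlapping the untreated 10.7, 19.8 and 16.7. The log2 fold change in SM-Cn-/- was 0.79 (adjusted p = 0.523).

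Bmp4, a ligand of the BMP branch, was higher at 24 h in several arms. In Cn-Ctl its signal was 19.7 and 24.5 untreated, 23.8, 31.1 and 33.1 after 2 h, 32.5, 39.1 and 26.8 after 6 h, and 55.4 and 46.7 after 24 h, with a log2 fold change of 1.19 ± 0.27 (adjusted p = 0.0116) at 24 h. In WT it was 39.1, 18.5 and 28.8 untreated, 21.2, 18.9 and 25 at 2 h and 43.3, 54.7 and 51.4 at 24 h (0.84 ± 0.24, adjusted p = 0.0143). In CsA it was 25.3, 25.7 and 36.7, then 18.4, 30.2 and 30.1, then 53.2, 57.0 and 75.4 (1.07 ± 0.24, adjusted p = 0.0142). In these 3 arms every 24 h library exceeded every untreated library of its arm. Macrophage marker sums moved over the same groups, at 235 to 331 against 90.9 to 123 untreated in Cn-Ctl (2 of 8 genes higher) and 283 to 421 against 106 to 156 in WT (8 of 8 higher). In CsA they were 247 to 393 against 290 to 355, with none passing. In WT at 24 h, where 35% of all genes passed, 3 of 10 endothelial and 3 of 8 fibroblast genes were higher and 1 fibroblast gene lower. In the same contrast 1 of 9 smooth muscle genes was higher and 4 lower, and 2 of 8 adipose and 2 of 7 blood genes were higher. In Cn-Ctl at 24 h, where 5.62% of all genes passed, 2 fibroblast genes and 1 smooth muscle gene were higher. In CsA at 24 h, where 8.97% of all genes passed, 2 of 9 smooth muscle genes and 1 of 4 skeletal muscle genes were higher. There 2 of 10 endothelial genes and 1 of 8 fibroblast genes were lower. The macrophage gene Fcgr1 was at 0 in 2 of the 22 genotype libraries. The part of these markers in the Bmp4 values was not tested.

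In SM-Cn-/- the Bmp4 signal was 36.1, 35.8 and 26.4 untreated, 22.4, 30.5 and 37.1 at 2 h, 50.1, 51.7 and 60.2 at 6 h and 38.8, 59.5 and 44.5 at 24 h. The 6 h and 24 h libraries lay above the untreated ones, but neither time passed (0.72, adjusted p = 0.089 and 0.52, adjusted p = 0.352). By DESeq2 the 6 h rise (0.0458) and the 6 h difference from Cn-Ctl (0.0439) did pass, though neither passed by limma. Every untreated SM-Cn-/- library lay above both untreated Cn-Ctl libraries (mean 1.48 times as high), a difference that did not pass. At 24 h the genotypes overlapped (mean 0.932 times that of Cn-Ctl). The 24 h response differed from that of Cn-Ctl by -0.67 (95% interval -1.40 to 0.06; adjusted p = 0.507). The CsA and WT responses at 24 h differed by 0.24 (-0.49 to 0.97). The 24 h calls of Bmp4 depended on single libraries. In Cn-Ctl the adjusted p was 0.057, 0.0549 and 0.135 without 24 h replicate 2, 24 h replicate 3 or untreated replicate 2, and 0.0788 with only the compared groups. In WT it was 0.0585 and 0.0887 without 24 h replicate 2 or untreated replicate 2, and in CsA 0.0631 and 0.0549 without untreated replicate 1 or 2.

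The receptor-activated Smads, which carry the TGF-beta signal to the nucleus, passed in no comparison. Smad2 signal ran from 7.46 to 39.5 (median 24.7) in the genotype experiment and from 17.6 to 28.3 (median 21.7) in the CsA experiment, and its Ang-II responses in SM-Cn-/- and Cn-Ctl differed by 0.16 (95% interval -0.97 to 1.28), -0.72 (-1.84 to 0.41) and 0.23 (-0.96 to 1.41) at 2, 6 and 24 h. These intervals are wide enough to hold a change of 1 log2 unit in either direction at some time. Smad3 signal ran from 12.8 to 32.8 (median 22.9) and from 16.2 to 47.5 (median 30.6). In Cn-Ctl its treated libraries all lay below the untreated ones, with means 0.602, 0.696 and 0.647 times the untreated mean at 2, 6 and 24 h. Untreated SM-Cn-/- libraries also lay below untreated Cn-Ctl (0.746 times). After 2 h Smad3 was 15.1, 12.8 and 30.7 in Cn-Ctl against 32.8 and 32.0 untreated. This log2 difference of -0.82 ± 0.33 (limma adjusted p = 0.166) passed only without 2 h replicate 3 (0.0243). In WT, Smad3 at 2 h likewise passed only without 2 h replicate 2 (0.0293), and Smad2 at 24 h only without 24 h replicate 3 (0.0115).

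Smad6, the inhibitory Smad of the BMP branch, was lower at 2 h in the CsA experiment. The signal was 49.3, 58.7 and 71.1 in untreated WT, 29.7, 32.5 and 24.6 at 2 h and 40.6, 42.3 and 67.9 at 24 h. In CsA it was 34.2, 37.5 and 41.3, then 23.2, 26.7 and 26.6, then 38.5, 53.9 and 43.0. All 2 h libraries lay below the untreated ones of their arm, with a log2 fold change of -1.02 ± 0.18 in WT (adjusted p = 0.000876) and -0.55 ± 0.18 in CsA (adjusted p = 0.0435). Untreated, Smad6 was lower in CsA than in WT without overlap (-0.65 ± 0.18, adjusted p = 0.0183), beside the marker differences given for Tgfb2, whose part was not tested here either. The responses at 2 h differed by 0.47 (95% interval -0.08 to 1.02; adjusted p = 0.428).

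The CsA calls of Smad6 were the less stable ones. At 2 h edgeR gave an adjusted p of 0.0501, and limma gave 0.101, 0.0873 and 0.0653 without CsA 2 h replicates 1, 2 and 3, 0.0576, 0.0891 and 0.138 without untreated CsA replicates 1, 2 and 3, and 0.0523 and 0.0556 without WT 2 h replicate 1 or untreated WT replicate 2. The untreated difference gave 0.0922 without WT replicate 3 and 0.0655 without CsA replicate 1. Without WT 24 h replicate 3, Smad6 passed at 24 h in WT (0.0277) and in the difference of the 24 h responses (0.0447).

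In the genotype experiment Smad6 had the same direction at 2 h but did not pass. The signal was 23.1 and 12.5 in untreated Cn-Ctl, 8.08, 10.8 and 9.72 at 2 h, 13.1, 11.9 and 13.3 at 6 h and 28.1 and 20.3 at 24 h. In SM-Cn-/- it was 15, 12.1 and 20.1, then 8.04, 10.9 and 10.7, then 28.2, 26.3 and 17.9, then 28.0, 21.5 and 33.3. The 2 h libraries lay below the untreated ones in both genotypes (-0.81 ± 0.31, adjusted p = 0.145 and -0.63 ± 0.28, adjusted p = 0.343). At 6 h the libraries of SM-Cn-/- all lay above those of Cn-Ctl, with a log2 difference of 0.86 (adjusted p = 0.124; 0.037 by DESeq2).

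Smad7, the general inhibitory Smad, ran from 29.6 to 76.0 (median 46.3) in the genotype experiment and from 35.7 to 91.6 (median 56.8) in the CsA experiment. At 2 h it was 44.7, 80.2 and 61.7 in CsA against 35.7, 46.7 and 40.8 untreated, which overlapped (log2 fold change 0.56 ± 0.20, adjusted p = 0.0618). That comparison passed by DESeq2 (0.023) and without CsA 2 h replicate 1 (0.0135) or WT 2 h replicate 2 (0.0492). In WT the 2 h libraries, 91.6, 59.6 and 75.1, overlapped the untreated 66.0, 45.1 and 53.5 (0.45, adjusted p = 0.134).

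**Figure D2:**
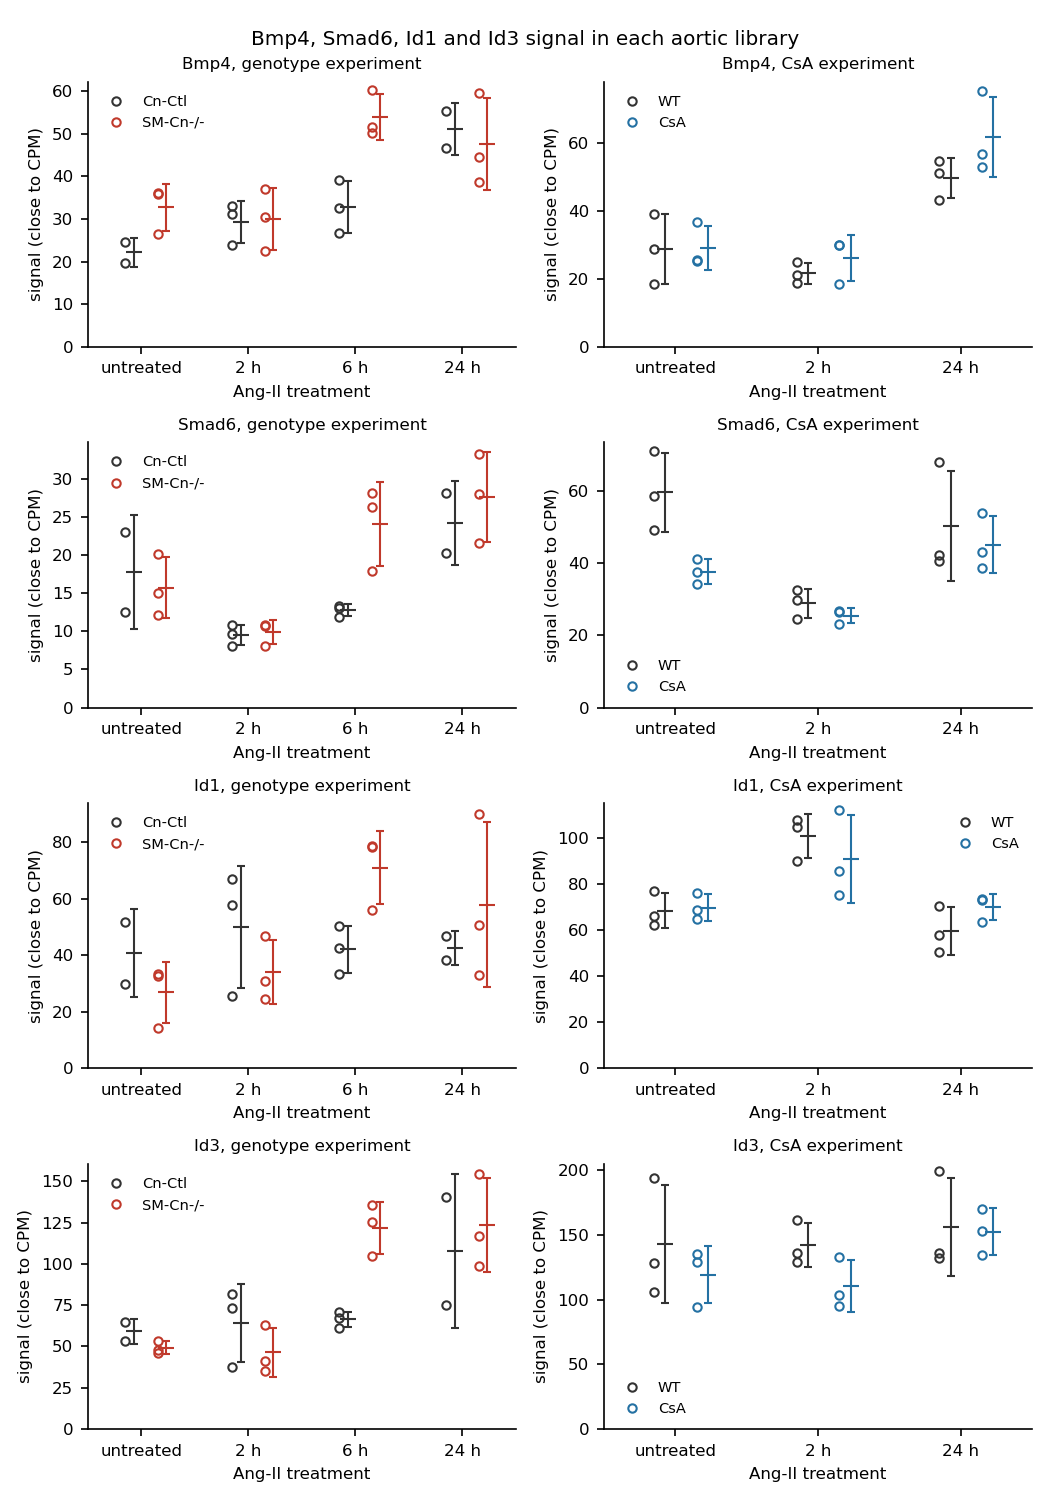
Normalized read signal (close to CPM, linear axis from 0) of Bmp4, Smad6, Id1 and Id3 against hours of Ang-II in the genotype and CsA experiments; open circles are libraries, dashes and bars the mean ± SD of 2 or 3 libraries. Bmp4 reached 46.7 to 55.4 in Cn-Ctl at 24 h, Smad6 fell to 24.6 to 32.5 in WT at 2 h, and Id3 reached 105 to 136 in SM-Cn-/- at 6 h.

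Id1 and Id3 rose late in SM-Cn-/- aortas. Id3 (chr4:136143497-136145755, plus strand) was 45.8, 53.5 and 48.2 untreated, 35.0, 41.3 and 63.3 at 2 h, 105, 125 and 136 at 6 h and 117, 98.9 and 154 at 24 h. All 6 h and 24 h libraries lay above the untreated ones, by 1.30 ± 0.27 on the log2 scale at 6 h (adjusted p = 0.012) and 1.30 ± 0.27 at 24 h (adjusted p = 0.0213). Id1 (chr2:152736251-152737410, plus strand) was 33.5, 32.8 and 14.3 untreated, 30.9, 24.7 and 46.8 at 2 h, 56.1, 78.6 and 78.2 at 6 h and 50.8, 33.0 and 90.1 at 24 h. It passed at 6 h (1.47 ± 0.38, adjusted p = 0.0429) and not at 24 h (1.07, adjusted p = 0.225).

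In Cn-Ctl neither Id gene passed at any time. Id3 was 64.6 and 53.6 untreated, 73.3, 82.0 and 37.6 at 2 h, 61.4, 70.6 and 67.2 at 6 h and 141 and 74.9 at 24 h (0.80 ± 0.33 at 24 h, adjusted p = 0.166). Id1 was 29.9 and 51.7 untreated, 66.9, 57.8 and 25.6 at 2 h, 33.4, 42.5 and 50.3 at 6 h and 46.7 and 38.2 at 24 h. The difference between the genotypes did not pass the test: the 6 h responses differed by 1.13 (95% interval 0.29 to 1.96; adjusted p = 0.615) for Id3 and 1.39 (0.20 to 2.58; adjusted p = 0.715) for Id1. At 6 h itself, SM-Cn-/- exceeded Cn-Ctl without overlap for both genes (0.87 for Id3, adjusted p = 0.106, or 0.0361 by DESeq2, and 0.75 for Id1, adjusted p = 0.391).

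Endothelial cells express Id genes and Smad6, and the summed endothelial markers are given here for the same groups. They were 448 to 559 in untreated Cn-Ctl, 437 to 708 at 2 h, 645 to 747 at 6 h and 622 to 639 at 24 h, against 668 to 898, 828 to 1020, 704 to 1499 and 1318 to 1369 in SM-Cn-/-. Of the 10 endothelial genes, 1 was higher in SM-Cn-/- than in Cn-Ctl at 2 h and 3 at 24 h, and none passed untreated or at 6 h. Within SM-Cn-/-, none of the 10 passed against untreated at 2, 6 or 24 h. Their median log2 fold change there was 0.17, 0.22 and 0.78. The 2 h and 6 h sums overlapped the untreated ones, and all 24 h sums lay above them. Between genotypes the sums of SM-Cn-/- lay above those of Cn-Ctl untreated, at 2 h and at 24 h, and overlapped at 6 h. The part of these markers in the Id1, Id3, Smad6 and Bmp4 values was not tested. The Id3 calls were lost at 6 h without 6 h replicate 2 (adjusted p = 0.0569) or untreated replicate 3 (0.0561), and at 24 h without 24 h replicate 1 or 3 (0.102 and 0.121) or any untreated replicate (0.0614, 0.0546 and 0.0948).

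The Id1 call at 6 h in SM-Cn-/- lay close to the threshold. It was lost with edgeR (0.0583) and with only the compared groups (0.0676). It was also lost without 6 h replicate 2 or 3 (0.155 and 0.123), untreated replicate 1 or 3 (0.0513 and 0.218), 2 h replicate 1 (0.0532) or 24 h replicate 1 (0.0547), and without Cn-Ctl 2 h replicate 2 (0.0523) or 6 h replicate 2 (0.0509).

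In the CsA experiment Id1 rose early in WT. Its signal was 76.8, 66.1 and 62.0 untreated, 108, 89.8 and 104 at 2 h and 50.2, 57.8 and 70.5 at 24 h, with the 2 h libraries above the rest (0.56 ± 0.14, adjusted p = 0.0109). In CsA it was 64.6, 75.9 and 68.5, then 85.3, 112 and 75.0, then 73.1, 73.4 and 63.2, and the 2 h libraries overlapped the untreated ones (0.36, adjusted p = 0.0857; 0.0482 by DESeq2 and 0.0354 without 2 h replicate 3). The WT call was lost with quantile normalization (0.0818) and without 2 h replicate 1 (0.0509) or untreated replicate 3 (0.0508). Id3 ran from 106 to 200 in WT and from 94.2 to 170 in CsA and passed at neither time.

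By counts, 2 of the 10 genes passed in Cn-Ctl at 2 h (Tgfb2 and Tgfb3), where 6.23% of 14424 protein-coding genes did, 2 at 6 h (the same genes; 3.97% of all) and 2 at 24 h (Tgfb2 and Bmp4; 5.62%). In SM-Cn-/- at 2 h no member passed by limma, edgeR or DESeq2, 2 had an unadjusted p under 0.05, and 1.13% of all genes passed. At 6 h Id1 and Id3 passed (2.34% of all) and at 24 h Tgfb2 and Id3 (0.79%). The median log2 fold change of the 10 genes was 0.19, 0.12 and 0.29 in Cn-Ctl and 0.11, 0.56 and 0.51 in SM-Cn-/- at 2, 6 and 24 h, and that of all genes lay between -0.03 and 0.01.

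Between genotypes no member passed untreated by limma, edgeR or DESeq2 (2 at an unadjusted p under 0.05; 0.0139% of all genes passed), and Tgfb2 and Tgfb3 were the 2 that passed at 2, 6 and 24 h (3.7%, 1.98% and 4.94% of all genes). At 6 h, 6 members had an unadjusted p under 0.05 and DESeq2 called 5, adding Bmp4, Smad6 and Id3, while edgeR called 2. In the test of the difference of responses 1 member, Tgfb2, passed at 2 h and at 24 h (0.513% of all genes at each time), and none passed at 6 h by limma or edgeR, where 5 had an unadjusted p under 0.05 and 0.0624% of all genes passed. Comparisons at the 3 times share the untreated libraries. Complete separation of libraries was common among all genes, since groups are small: against untreated it held for 39.1%, 34% and 49.8% of genes at 2, 6 and 24 h in Cn-Ctl, for 20.5%, 18.9% and 19.6% in SM-Cn-/-, for 40.5% and 51% at 2 and 24 h in WT, and for 36.9% and 29.2% in CsA. Between genotypes it held for 23.5% untreated and 22.2%, 14.4% and 35.1% at 2, 6 and 24 h, and between CsA and WT for 47.8%, 20.2% and 27% untreated and at 2 and 24 h.

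In WT 4 members passed at 2 h (Tgfb2, Tgfb3, Id1 and Smad6) and 2 at 24 h (Tgfb3 and Bmp4), where 21.4% and 35% of 13741 protein-coding genes did. In CsA 3 passed at 2 h (Tgfb2, Tgfb3 and Smad6) and 1 at 24 h (Bmp4), against 20.1% and 8.97% of all genes. Many genes passed in these arms, and the members' counts are read against that background. CsA against WT gave 2 members untreated (Tgfb2 and Smad6), where 25.2% of all genes passed, and none at 2 h or 24 h (1 and 2 at an unadjusted p under 0.05; none and none by edgeR, none and 1 by DESeq2), with 1.33% and 5.57% of all genes passing. The difference of responses gave none at either time by limma, edgeR or DESeq2 and none at an unadjusted p under 0.05 (0.146% and 9.42% of all genes passed).

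**Figure D3:**
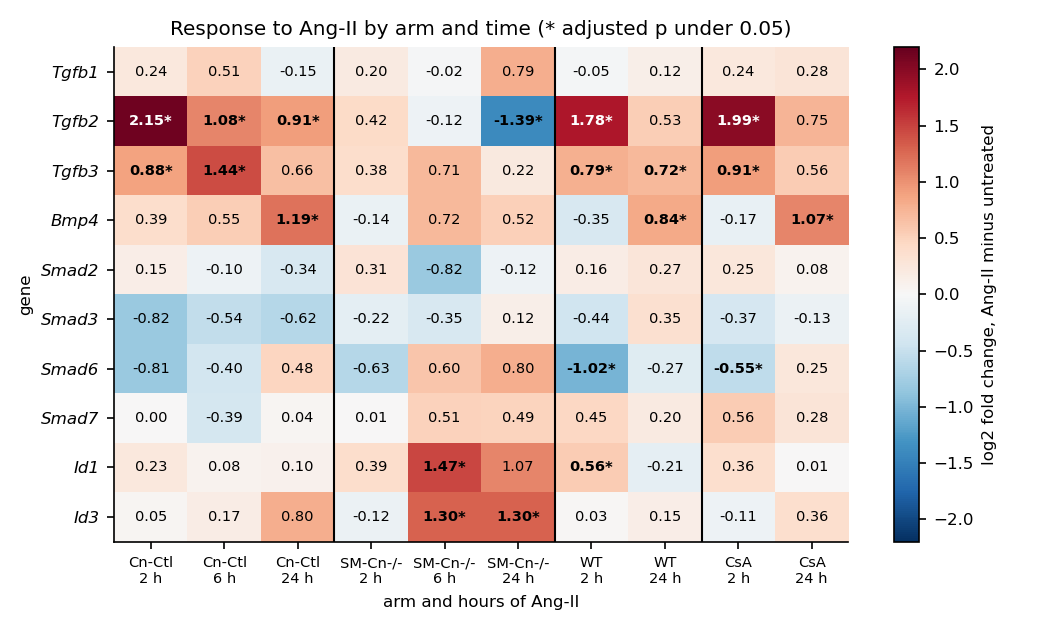
Heat map of the log2 fold change of the 10 genes (rows) over 10 Ang-II against untreated comparisons (columns); an asterisk marks an adjusted p under 0.05. Tgfb2 ranged from -1.39 in SM-Cn-/- at 24 h to 2.15 in Cn-Ctl at 2 h.

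**Figure D4:**
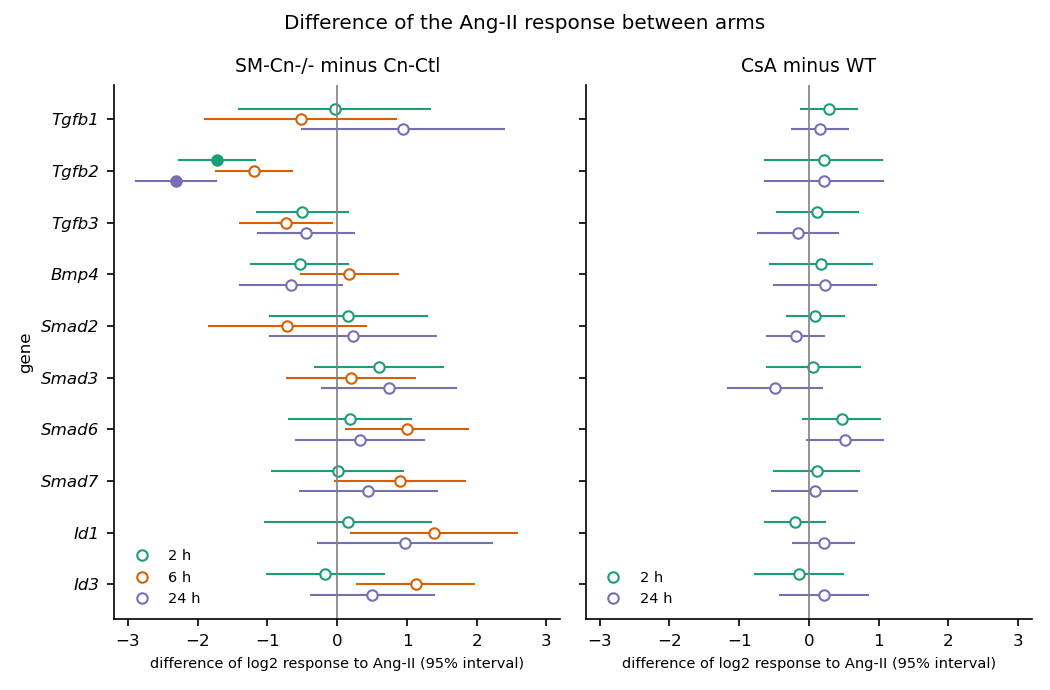
Difference of the log2 Ang-II response for each of the 10 genes, SM-Cn-/- minus Cn-Ctl and CsA minus WT, at each time; points are estimates, bars 95% intervals, and filled points passed at an adjusted p under 0.05. Tgfb2 at 2 h (-1.73) and 24 h (-2.31) between genotypes are the filled points.

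Around the 10 members, 7 lists of other pathway genes held 85 genes measured by genotype and 84 measured with CsA. After 2 h of Ang-II, 12 of them passed in Cn-Ctl (11 higher), 3 in SM-Cn-/- (3 higher), 22 in WT (19 higher) and 23 in CsA (23 higher), comparisons where 6.23%, 1.13%, 21.4% and 20.1% of all genes passed. In SM-Cn-/- 12 were lower than in Cn-Ctl at 2 h and none higher (3.7% of all genes passed), and 2 passed the test of the difference of responses (0.513% of all). The median log2 fold change of the 85 genes at 2 h was 0.33 for Cn-Ctl, beside 0.25 for SM-Cn-/-.

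Among known targets of the pathway, 4 of 15 passed in Cn-Ctl at 2 h (3 higher and 1 lower; 6.23% of all genes passed) and 1 in SM-Cn-/- (1.13% of all). The lower gene was Atoh8, a BMP target named after its values were seen (-1.34, adjusted p = 0.0145). Ctgf, a matricellular growth factor, rose in both genotypes, by 3.66 (adjusted p = 2.37e-06) and 2.10 (adjusted p = 0.00349), and was lower in SM-Cn-/- than in Cn-Ctl at 2 h (-1.53, adjusted p = 0.0142). Cdkn1a, the cell cycle inhibitor p21, rose by 2.98 in Cn-Ctl (adjusted p = 1.06e-05) and 2.23 in WT (adjusted p = 8.14e-07), and its response in CsA was smaller than in WT by -1.47 (adjusted p = 0.0417). Junb, an AP-1 subunit, rose by 2.21 in WT (adjusted p = 1.43e-05) and was lower in CsA than in WT at 2 h (-1.17, adjusted p = 0.0381).

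Genes for latent storage and activation passed in 3 of 14 cases in Cn-Ctl at 2 h (6.23% of all genes passed) and in 1 in SM-Cn-/- (1.13% of all). Thbs1, a matrix protein that can activate latent TGF-beta, rose by 3.08 in Cn-Ctl (adjusted p = 2.9e-05), with 0.30 in SM-Cn-/- (adjusted p = 0.756) and a difference of responses of -2.78 ± 0.55 (adjusted p = 0.0169). Lrrc32, which anchors latent TGF-beta at the cell surface, rose by 2.70 (adjusted p = 7.17e-06) and by 1.36 (adjusted p = 0.0165). Ltbp2, a latent TGF-beta binding protein, rose by 1.15 in Cn-Ctl (adjusted p = 0.0051). Furin, a protease that cleaves TGF-beta precursors, rose by 0.34 in WT (adjusted p = 0.0171).

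Of 12 receptors, 1 passed at 2 h in each genotype, where 6.23% of all genes passed in Cn-Ctl and 1.13% in SM-Cn-/-. Tgfbr1, the type I TGF-beta receptor, rose by 1.63 in Cn-Ctl (adjusted p = 0.000143) and 1.14 in SM-Cn-/- (adjusted p = 0.00951). It rose by 1.25 in WT (adjusted p = 0.000232) and 1.48 in CsA (adjusted p = 0.000119). Its responses did not differ detectably between genotypes (-0.48, adjusted p = 0.787). In the WT aorta Acvrl1, an endothelial type I receptor, rose by 0.46 (adjusted p = 0.00647).

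Of the 6 other Smad and Id genes, Smad1, a Smad of the BMP branch, rose by 1.34 in Cn-Ctl (adjusted p = 0.00349), 1.20 in WT (adjusted p = 2.02e-05) and 1.17 in CsA (adjusted p = 6.63e-05), with 0.63 in SM-Cn-/- (adjusted p = 0.27). Smad9, of the same branch, and Id4 fell in WT, with log2 fold changes of -0.98 (adjusted p = 0.0103) and -0.65 (adjusted p = 0.00879). Among 14 intracellular regulators Skil, a repressor of Smad transcription, rose by 1.19 in Cn-Ctl (adjusted p = 0.0251), 1.14 in WT (adjusted p = 0.000405) and 1.08 in CsA (adjusted p = 0.00101), and in SM-Cn-/- it was 0.81 (adjusted p = 0.201). None of these named genes passed the test of the difference of responses between genotypes at 2 h.

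Of 11 other ligands none passed at 2 h in either genotype, where 6.23% of all genes passed in Cn-Ctl and 1.13% in SM-Cn-/-. Gdf15, a stress-induced ligand, rose by 2.61 in WT (adjusted p = 7.23e-06) and 2.37 in CsA (adjusted p = 4.76e-05). Bmp2, a close relative of Bmp4, rose by 0.82 in WT (adjusted p = 0.0179) and was lower in SM-Cn-/- than in Cn-Ctl at 2 h (-2.06, adjusted p = 0.00432). Of 13 secreted antagonists Fstl3, which binds activins, rose by 1.30 in Cn-Ctl (adjusted p = 0.000513), 0.85 in WT (adjusted p = 0.00252) and 1.06 in CsA (adjusted p = 0.000847). Nbl1, a BMP antagonist, rose by 0.94 in Cn-Ctl (adjusted p = 0.0231), and Lefty1, an inhibitor of Nodal, fell in WT (-1.02, adjusted p = 0.00222).

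Patterns like those of the members were sought over the 10 Ang-II comparisons among 13434 genes, by the root-mean-square difference of log2 fold changes. The closest to Tgfb2 were 2310057M21Rik, Zfp948 and Wsb1, at 0.439, 0.456 and 0.462, where the median gene lay at 1.37. For Tgfb3 they were Actn4 (0.191), Hspb7 (0.204) and Fam214b (0.216), for Smad6 Fhod1 (0.134), Eva1b (0.154) and Trim46 (0.225), and for Bmp4 Capg (0.269), Mars (0.274) and Rpl41 (0.279). For Id1 they were Mn1 (0.214), Tns2 (0.246) and Phyhd1 (0.250), and for Id3 Bcl9l (0.205), Rabac1 (0.218) and Crip2 (0.220).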

How the data were processed

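RNA from pools of 3 aortas was sequenced on a Genome Analyzer IIx after reverse transcription primed with oligo-dT, and the authors estimated reads per gene with Bowtie 0.12.7 and RSEM 1.16 (GRCm38, per the submitters' processing notes). The signal values deposited by the authors are normalized. From the values, each is the reads plus 0.5 divided by a library size scaled by the authors, since 100% of values convert to whole reads within 0.05 reads. That scaling is part of every value and its tool is not given in the sources used here. The authors left out 1 untreated Cn-Ctl replicate. Replicate pairs differed beyond read sampling (chi-square per degree of freedom at least 5.97 and 10.5). Nothing in the labels says whether pools of a group were housed or treated apart, so p-values measure the spread between pools.

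Ensembl identifiers were looked up in GENCODE M21, and 14424 and 13741 protein-coding genes were kept (2952 and 1643 of another biotype and 26 and 15 unmatched were left out). Log2(signal + 0.5) was fitted with limma 3.58.1 in R 4.3.3, with a mean per group, all groups of an experiment in the fit, and Benjamini-Hochberg adjustment over all genes in each of 22 comparisons. Fold changes are on that scale, which understates those of low genes. With 2 or 3 libraries a group, an exact permutation test cannot reach p = 0.05. Alternatives were edgeR 4.0.16 and DESeq2 1.42.0 on the recovered reads, a pseudocount of 1, a filter at a signal of 5 in 2 libraries, quantile normalization, only the compared groups, the replicate number as a block, and leaving out each library. Scripts were tested on simulated data. Intervals of differences are limma's 95% intervals.

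Members were given by symbol. The pathway and marker lists were taken from general knowledge, and members and lists were chosen with earlier results of these data known. Pathway genes are named where they were among the 4 largest changes of their list after 2 h in WT or Cn-Ctl (1 such gene is not reported here), and genes with the most similar pattern where a member passed with a log2 fold change over 1. Beyond the marker lists in the results, summed signal ran from 957 to 3319 (genotype experiment) and 1099 to 2006 (CsA experiment) for fibroblasts, 35.0 to 2275 and 63.6 to 2494 for blood, 5.51 to 262 and 6.82 to 70.1 for skeletal muscle, and 1.20 to 23.1 and 0.0766 to 1.63 for lymphoid cells. Promoters are from RefSeq GRCm38.p6.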

Additional observations from a re-analysis of the deposited data

Results flagged for a closer look

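The Ang-II response of Tgfb2 differed between the genotypes by the test of the difference itself, by -1.73 on the log2 scale at 2 h (adjusted p = 0.0022) and -2.31 at 24 h (adjusted p = 0.000481), SM-Cn-/- minus Cn-Ctl. For Tgfb1 at 24 h the libraries of both genotypes moved in opposite directions from their untreated mean, by -0.30 to about 0 in Cn-Ctl and by 0.32 to 1.21 in SM-Cn-/-, and the difference, 0.94, did not pass (adjusted p = 0.666). Smad6 at 6 h did the same, by -0.49 to -0.34 in Cn-Ctl and 0.21 to 0.85 in SM-Cn-/-, with a difference of 1.00 (adjusted p = 0.726).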

How the results depend on the processing

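The number of member calls summed over the comparisons was 10 for Ang-II within genotypes, 6 for SM-Cn-/- against Cn-Ctl, 2 for the difference of their responses, 10 for Ang-II within WT and CsA, 2 for CsA against WT and 0 for the difference of their responses. The first fell to 5 when only the compared groups were fitted, with fewer libraries for the spread. In the same order DESeq2 on the recovered reads gave 12, 9, 3, 14, 3 and 0 and edgeR 9, 6, 2, 9, 2 and 0. Leaving out 1 library gave 6 to 11, 5 to 6, 2 to 2, 8 to 12, 0 to 2 and 0 to 1. No call changed direction under any alternative. Tgfb2 passed under every alternative and every left-out library at 2 h in Cn-Ctl, WT and CsA, at 24 h in SM-Cn-/-, at the 3 times between genotypes, and in the differences of response at 2 and 24 h. So did Tgfb3 at 2 h between genotypes, at 2 h in WT and CsA and at 24 h in WT, and Smad6 at 2 h in WT.

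With the replicate number as a block the counts were 10, 6, 2, 10, 2 and 0. Same-numbered libraries deviated from their group means with a median correlation of 0.059 (-0.374 to 0.339) in the genotype and -0.028 (-0.389 to 0.377) in the CsA experiment, so the number does not pair them. In the shallowest library Tgfb1 had 14 reads and Smad2 had 21.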
